A study of Mus musculus with 9 samples.

Results

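RET fusion kinases were set against the ABL fusion kinase in BaF3, a haematopoietic mouse cell line dependent on interleukin-3, by pooling BCR-RET and FGFR1OP-RET on one side and BCR-ABL on the other. The comparison used all 9 arrays of the data set, 3 of BCR-ABL and 6 of RET fusions, of which 3 carried BCR-RET and 3 FGFR1OP-RET. The BCR-RET and FGFR1OP-RET group means had equal weight. A gene was reported where both RET group means lay on the same side of the BCR-ABL mean and the pooled difference passed limma's test at a Benjamini-Hochberg adjusted p under 0.05 over all genes, which is termed called below. This selected 145 of 19938 genes (0.727%), 93 higher in the RET fusions (0.466%) and 52 lower (0.261%).

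All cells were infected with a retrovirus that carried the fusion gene and were sorted by EGFP fluorescence. The BCR-ABL construct is the P210 form, per the design text. Cells without a fusion were not analysed here, so each difference is between fusion kinases. Whether the arrays of a group stem from independent infections is not stated in the labels, so p-values reflect only array-to-array spread, which may be technical. Values are log2 RMA expression, a probe-level summary made alike across arrays, and ± is the SD of 3 arrays. The array medians lay between 8.01 and 8.04. In bulk RNA, fewer cells of a type and less RNA per cell cannot be told apart.

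ABL and RET are tyrosine kinases. A fusion partner brings kinase domains together, so that they phosphorylate one another and signal without a ligand. In chronic myeloid leukaemia BCR-ABL drives the RAS-ERK, PI3K and STAT5 pathways, and in BaF3 cells such fusions can stand in for interleukin-3. RET is normally a receptor for the GDNF family of growth factors. Both RET fusions carry this kinase with different partners, and BCR-RET shares its partner with BCR-ABL.

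The genes whose names the fusions bear came first. Abl1, on probe set 10471201, was at 11.14, 11.27 and 11.17 in BCR-ABL, at 10.71, 10.86 and 10.63 in BCR-RET and at 10.94, 10.87 and 11.01 in FGFR1OP-RET. All 6 RET arrays were below all 3 BCR-ABL arrays. Abl1 fell by 0.36 (SE 0.06, adjusted p = 0.0325), and this call ended when any 1 of 7 arrays was left out (adjusted p = 0.222 without BCR-ABL replicate 2). Ret lay at 0.15 (adjusted p = 0.347), Bcr at -0.28 (adjusted p = 0.379) and Cep43, the gene of FGFR1OP, at 0.03 (adjusted p = 0.855). The sources used here do not give the part or species of each gene in the constructs, and these mouse probe sets therefore do not check the labels.

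The labelled cell type was read from its markers. Ptprc, the pan-leukocyte phosphatase CD45, had group means of 11.68, 11.48 and 11.84 in BCR-ABL, BCR-RET and FGFR1OP-RET. Il3ra, the interleukin-3 receptor alpha chain, had 10.33, 10.39 and 10.52. The B lineage genes Pax5, Ebf1, Vpreb1 and Cd79a were below the array medians in all 3 groups, with means of 7.50, 6.48, 7.55 and 6.05 in BCR-ABL. Cd79b, of the same lineage, was above them, with group means of 9.64, 9.87 and 9.72. None of 20 measured B lymphoid, 20 mast cell and basophil or 12 stromal genes was called. With 0.727% of all genes called, nothing is read from this.

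Genes induced by interferon made up the largest group of calls among the 26 gene lists read. The lists were written with earlier results of these data known, so their shares are a description and not a test. Interferon binds its receptor on the cell surface and induces antiviral effectors, many of which have an interferon response element in their promoters. Of 33 measured effectors, 12 rose and none fell (36.4% of the list, 0.727% of all genes). The list median was 0.36 on the log2 scale against 0.014 for all genes, and 31 of 33 had a difference above 0, as had 57.8% of all genes. In 15 of the 33, all 6 RET arrays were above all 3 BCR-ABL arrays, as in 2.38% of all genes. The count of 12 became 8, 3 and 7 without BCR-ABL replicates 1, 2 and 3 and lay between 9 and 13 without any of the RET arrays. It was 1 (Oasl2) when the 6 RET arrays were fitted as 1 group, so that the difference between BCR-RET and FGFR1OP-RET counted as spread.

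Oas2, a 2-5A synthetase gene, had the highest difference of the 145 genes. These enzymes sense double-stranded RNA and make 2-5A, which activates RNase L. Oas2 was at 8.93, 8.79 and 8.73 in BCR-ABL, at 9.63, 9.57 and 9.26 in BCR-RET, and at 11.04, 10.74 and 10.50 in FGFR1OP-RET. The 3 groups did not overlap, and FGFR1OP-RET was the highest. Oas2 rose 2.48-fold in the pooled comparison (log2 difference 1.31, SE 0.12, adjusted p = 0.0019), with 0.67 for BCR-RET and 1.94 for FGFR1OP-RET. Its neighbour Oas3, of the same family, rose by 0.75 (SE 0.06, adjusted p = 6.73e-04), with 0.21 for BCR-RET and 1.28 for FGFR1OP-RET.

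Oasl2 and Oasl1 encode related proteins. Oasl2 was at 8.07, 8.02 and 8.17 in BCR-ABL, at 8.83, 9.09 and 8.61 in BCR-RET and at 9.31, 9.19 and 9.15 in FGFR1OP-RET. The RET arrays were all above the BCR-ABL arrays. Oasl2 rose 1.92-fold (log2 difference 0.94, SE 0.09, adjusted p = 0.0026) and was called also without each array in turn and with the 6 RET arrays as 1 group (adjusted p = 0.0462). Oasl1 rose by 0.60 (SE 0.08, adjusted p = 0.0087), a call that ended without BCR-ABL replicate 2 or 3 (up to 0.0776).

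Ifit1, which binds foreign RNA and blocks its translation, was at 7.07, 7.52 and 7.58 in BCR-ABL, at 8.25, 8.68 and 8.39 in BCR-RET and at 8.29, 8.07 and 8.21 in FGFR1OP-RET. BCR-RET and FGFR1OP-RET overlapped each other and lay above BCR-ABL. Ifit1 rose by 0.93 (SE 0.13, adjusted p = 0.0124), with 1.05 for BCR-RET and 0.80 for FGFR1OP-RET. Leaving out BCR-ABL replicate 2 ended its call (adjusted p = 0.0654). The related Ifit3 rose by 0.46 and Rsad2, the antiviral enzyme viperin, by 0.45. Zbp1, a sensor of Z-form nucleic acids, rose by 0.77, the chemokine gene Cxcl10 by 0.77, Trim30a by 0.64, Rtp4 by 0.62 and Xaf1 by 0.51. Without BCR-ABL replicate 2 the calls of these 7 ended, at adjusted p values of 0.058 (Trim30a) to 0.203 (Ifit3 and Rsad2) at their highest over the arrays left out.

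Signalling genes and sensors upstream of the effectors moved less as a list. Of 25 measured, 4 rose and none fell (16.0% of the list, 0.727% of all genes), and the list median was 0.066. Irf7, the transcription factor that amplifies interferon production, was at 7.80, 8.08 and 7.85 in BCR-ABL, at 8.46, 8.68 and 8.21 in BCR-RET and at 9.15, 9.28 and 9.06 in FGFR1OP-RET. The groups did not overlap, and Irf7 rose by 0.90 (SE 0.10, adjusted p = 0.0058), also without each array in turn. Usp18, which removes ISG15 from proteins and dampens the receptor, rose by 0.92 (SE 0.13, adjusted p = 0.014). The RNA sensor genes Ddx58 (0.59) and Ifih1 (0.43) rose. Irf7 alone was called when BCR-ABL replicate 1 or 2 was left out, where Usp18, Ddx58 and Ifih1 lost their calls (adjusted p of 0.113, 0.102 and 0.132 without replicate 2). Usp18 and Ifih1 also lost theirs without replicate 3, and none of the 4 was called with the RET arrays as 1 group.

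Members outside the lists, picked here after their values were seen, held further genes known to respond to interferon. Isg20, an interferon-stimulated exonuclease, was at 9.52, 9.64 and 9.77 in BCR-ABL, at 10.39, 10.68 and 10.66 in BCR-RET and at 10.36, 10.39 and 10.71 in FGFR1OP-RET. BCR-RET and FGFR1OP-RET covered nearly one range, above BCR-ABL. Isg20 rose by 0.89 (SE 0.10, adjusted p = 0.0045), without each array in turn and with the RET arrays as 1 group (adjusted p = 0.0126). Ifi27 rose by 0.74 and the guanylate-binding protein gene Gbp7 by 0.49. The peptide transporter gene Tap1 (0.37), its partner Tapbp (0.43) and the immunoproteasome subunit gene Psmb9 (0.36), which serve antigen processing, also rose. Antigen processing genes were not read as a list, so no share of them is given. Tap1 and Psmb9 are next to each other in the genome, and both lost their calls without any 1 of the BCR-ABL arrays (adjusted p of up to 0.0776 and 0.0914).

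The promoters of the called effectors were read for the interferon response element (GAAA, any 2 bases, then GAAA) on either strand, in the 250 bases before to 50 after each start in the RefSeq table (GRCm38.p6). The table matched 108 of the 145 genes. Of 9 called effectors with a promoter, 6 held the element (66.7%), against 3.89% of 15563 tested genes with a promoter and 3.44% of 32851 promoters. Over all measured effectors, called or not, 13 of 24 held it (54.2%). Over all calls, 13 of 70 higher genes (18.6%) and 2 of 38 lower genes (5.26%) held it. These shares describe the letters in the window and not binding. The STAT site TTCNNNGAA was in 7 of the 70 higher genes, 5 of the 38 lower genes and none of the 9 called effectors, but in 7 of the 24 measured effectors (29.2%), against 9.01% of tested genes. The 6 effectors are shown because they rose in the pooled comparison and hold the element, with 100 bases from before the start of each and the elements in capitals.
Ifit1: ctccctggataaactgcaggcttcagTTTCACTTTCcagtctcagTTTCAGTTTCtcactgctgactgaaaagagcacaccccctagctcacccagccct
Ifit3: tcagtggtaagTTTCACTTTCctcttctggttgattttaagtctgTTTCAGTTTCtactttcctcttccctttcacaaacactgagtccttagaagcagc
Oas3: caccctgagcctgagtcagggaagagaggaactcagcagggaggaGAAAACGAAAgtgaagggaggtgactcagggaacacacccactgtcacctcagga
Cxcl10: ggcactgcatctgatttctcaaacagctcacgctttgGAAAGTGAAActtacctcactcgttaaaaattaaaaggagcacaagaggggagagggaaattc
Rsad2: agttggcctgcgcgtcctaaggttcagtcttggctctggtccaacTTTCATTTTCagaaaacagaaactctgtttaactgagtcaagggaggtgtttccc
Trim30a: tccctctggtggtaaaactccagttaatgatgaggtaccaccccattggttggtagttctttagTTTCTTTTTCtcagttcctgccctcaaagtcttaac

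These stretches run 5′ to 3′ on the strand of the gene. In GRCm38.p6 they are chr19:34640759-34640858 (+ strand, Ifit1), chr19:34583362-34583461 (+ strand, Ifit3), chr5:120777680-120777779 (- strand, Oas3), chr5:92349040-92349139 (- strand, Cxcl10), chr12:26456518-26456617 (- strand, Rsad2) and chr7:104465194-104465293 (- strand, Trim30a). Ifit1 and Ifit3 hold 2 elements each and the other 4 hold 1. The element nearest the start began 85 bases before it in Ifit1, 122 in Ifit3, 75 in Oas3, 213 in Cxcl10, 120 in Rsad2 and 36 in Trim30a. Oasl1, Oasl2 and Xaf1 had no match in this window.

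**Figure D1:**
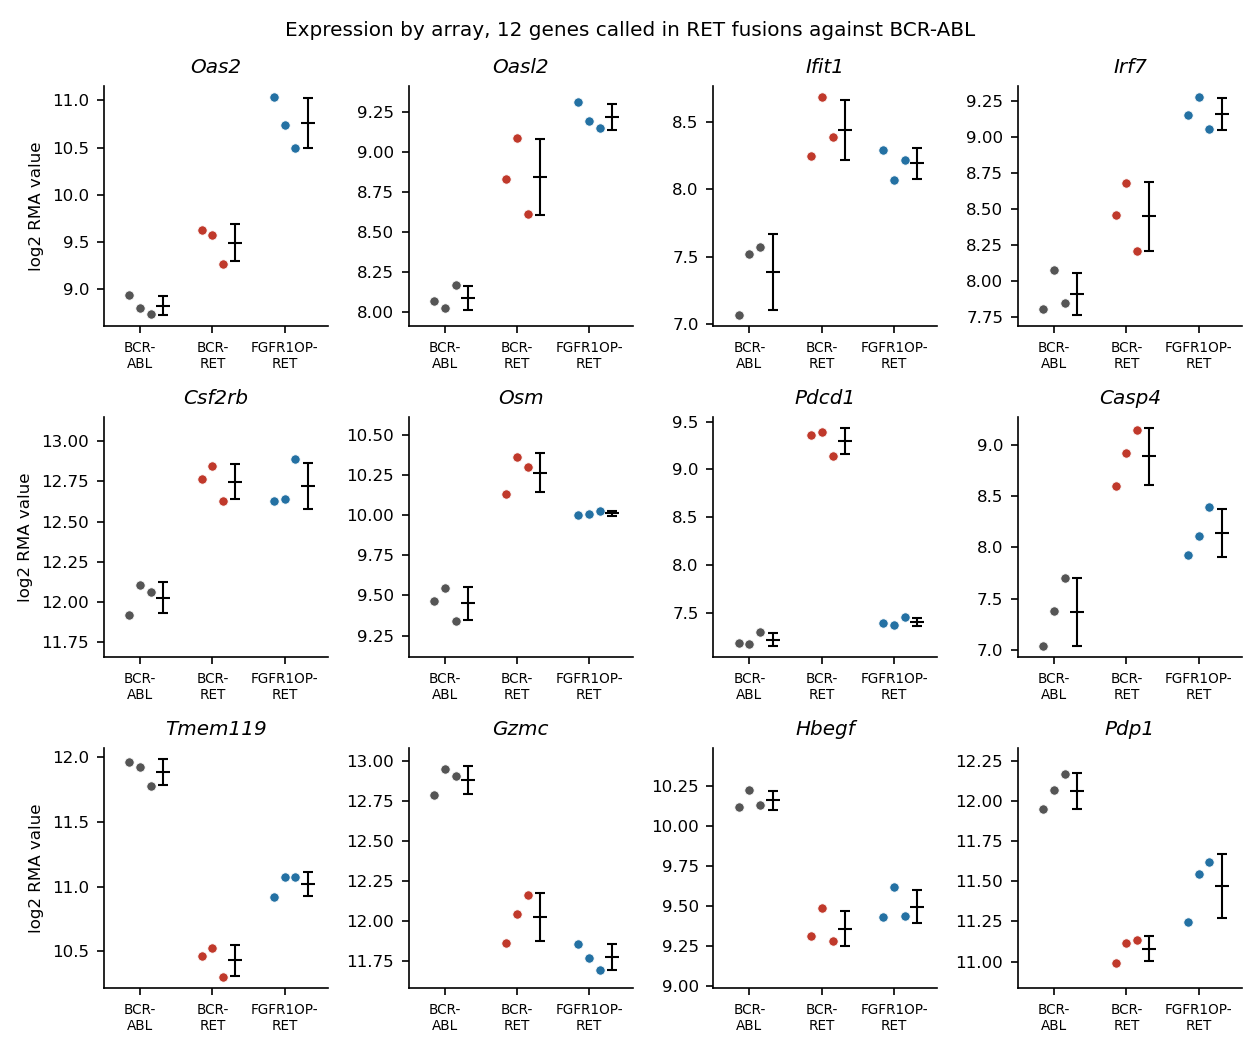
Log2 RMA values (y axis) of 12 called genes on the 3 arrays of BCR-ABL, BCR-RET and FGFR1OP-RET (x axis). Points are arrays and bars are the mean ± SD of 3 arrays, on axes that do not start at 0 and differ between genes. In each panel all 6 RET arrays are on one side of all 3 BCR-ABL arrays, and Pdcd1 in FGFR1OP-RET is close to BCR-ABL.

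The receptor for interleukin-3, the cytokine on which BaF3 cells depend, differed in its beta chains. Csf2rb is the signalling chain common to the receptors for GM-CSF, interleukin-5 and interleukin-3, and Csf2rb2 is its mouse relative specific to interleukin-3. Csf2rb was at 11.92, 12.10 and 12.06 in BCR-ABL, at 12.77, 12.85 and 12.63 in BCR-RET and at 12.63, 12.64 and 12.89 in FGFR1OP-RET. The RET groups covered the same range and did not overlap BCR-ABL. Csf2rb rose 1.64-fold (log2 difference 0.71, SE 0.08, adjusted p = 0.0045). BCR-RET and FGFR1OP-RET differed in it by 0.03, with a 95% interval of -0.17 to 0.22.

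Csf2rb2 was at 11.07, 11.17 and 11.31 in BCR-ABL, at 11.99, 12.24 and 12.04 in BCR-RET and at 11.66, 11.68 and 11.88 in FGFR1OP-RET. The groups did not overlap. Csf2rb2 rose by 0.73 (SE 0.08, adjusted p = 0.0045), and both calls held without each array in turn. Cross-hybridisation between these close relatives was not tested. Of 26 measured cytokine receptors these 2 were called and none fell (7.69% of the list, 0.727% of all genes, list median 0.073). Il3ra itself was at 0.12 (adjusted p = 0.684).

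Downstream of these receptors, STAT5 induces Osm, Cish, Socs and Pim genes. Osm, the cytokine oncostatin M, was at 9.47, 9.54 and 9.34 in BCR-ABL, at 10.13, 10.36 and 10.30 in BCR-RET and at 9.999, 10.01 and 10.03 in FGFR1OP-RET. Again no array of the RET fusions reached down to BCR-ABL. Osm rose by 0.69 (SE 0.06, adjusted p = 0.0019), also without each array in turn and with the RET arrays as 1 group (adjusted p = 0.0354). It was the single call among 22 JAK-STAT kinases and STAT5 targets (4.55% of the list, 0.727% of all genes), whose median was 0.018. Of 34 cytokines and chemokines 4 rose and none fell (11.8% of the list, 0.727% of all genes, list median 0.11). They were Osm, Cxcl10, Il6 and Il1rn. Il6 rose by 0.54 (SE 0.08, adjusted p = 0.0201), but its difference was 1.07 in BCR-RET and 0.002 in FGFR1OP-RET, so that it met the rule through BCR-RET. Its call ended without any 1 of 4 arrays, the 3 of BCR-ABL and FGFR1OP-RET replicate 1 (adjusted p of up to 0.13). The interleukin-1 receptor antagonist gene Il1rn rose by 0.40, with 0.13 in BCR-RET and 0.66 in FGFR1OP-RET, and lost its call without any 1 of the BCR-ABL arrays (adjusted p of up to 0.115).

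Targets of the ERK pathway included genes that were lower in both RET fusions. Hbegf, a ligand of the EGF receptor family, was at 10.12, 10.23 and 10.13 in BCR-ABL, at 9.31, 9.49 and 9.28 in BCR-RET and at 9.43, 9.62 and 9.44 in FGFR1OP-RET. The RET groups overlapped each other and lay below BCR-ABL. Hbegf fell by 0.73 (SE 0.06, adjusted p = 0.0015), without each array in turn and with the RET arrays as 1 group (adjusted p = 0.0106). Etv5, an ETS transcription factor induced by ERK, fell by 0.45 (SE 0.06, adjusted p = 0.0073), and the second BCR-ABL array was needed for its call (0.0723 without it). Its other probe set, left out of the test, was at -0.39. These were 2 of 28 measured ERK targets (7.14% of the list, 0.727% of all genes), whose median was 0.034, and none rose.

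Tyrosine kinase adaptors and phosphatases had calls in both directions. Of 34 measured, 2 rose and 1 fell (8.82% of the list, 0.727% of all genes). Gab2 (0.31) and Gab3 (0.40) rose and Dok2, an inhibitory docking protein, fell by 0.33. All 3 lost their calls without BCR-ABL replicates 1 and 2 (adjusted p of 0.142 for Gab2 and 0.099 for Dok2 without replicate 2). Gab3 had an adjusted p of 0.137 without BCR-ABL replicate 3. Outside the lists, and picked after their values were seen, the receptor genes Igf1r (0.45 lower), Insr (0.35 lower) and Ryk (0.81 lower), the receptor phosphatase gene Ptprs (0.49 lower) and the RAS inhibitor gene Rasa2 (0.34 lower) were called. The RAP and RAS activator gene Rasgrp2 rose by 0.35, a call that the loss of any array ended. No direction of such genes as a group is read from this choice. Ryk was at 8.07, 8.10 and 8.36 in BCR-ABL, at 7.46, 7.65 and 7.65 in BCR-RET and at 7.15, 7.08 and 7.21 in FGFR1OP-RET. The 3 groups did not overlap, and FGFR1OP-RET was lowest. The calls of Ryk, Igf1r and Rasa2 held without each array in turn, that of Insr ended without any 1 of 7 (up to 0.278), and that of Ptprs without any 1 of 8 (up to 0.223). Igf1r and Rasa2 fell mainly in BCR-RET, by 0.73 and 0.57. In FGFR1OP-RET they fell by 0.17 and 0.10 (adjusted p of 0.262 and 0.487 alone).

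Tmem119, which encodes a membrane protein, fell most of the 52 genes. It was at 11.97, 11.92 and 11.78 in BCR-ABL, at 10.46, 10.52 and 10.30 in BCR-RET and at 10.92, 11.07 and 11.07 in FGFR1OP-RET. The groups did not overlap. Tmem119 was 2.24-fold lower in the RET fusions (log2 difference -1.17, SE 0.07, adjusted p = 1.84e-04), without each array in turn. With the RET arrays as 1 group its adjusted p was 0.0515.

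Granzymes are serine proteases of cytotoxic granules, and 4 of them were called lower, as were 0.261% of all genes. The granzyme genes measured were not counted, so no share of the family is given. Gzmc was at 12.79, 12.95 and 12.91 in BCR-ABL, at 11.87, 12.05 and 12.17 in BCR-RET and at 11.86, 11.77 and 11.70 in FGFR1OP-RET. The highest RET array, at 12.17, was below the lowest BCR-ABL array, at 12.79. Gzmc was 1.97-fold lower (log2 difference -0.98, SE 0.07, adjusted p = 6.73e-04), without each array in turn and with the RET arrays as 1 group (adjusted p = 0.0106). Gzmb fell by 0.30, Gzmf by 0.40 and Gzmg by 0.30. These 3 lost their calls without any 1 of 6, 8 and 6 arrays (adjusted p of up to 0.166, 0.262 and 0.137), BCR-ABL replicates 2 and 3 among them for each. The 4 genes are neighbours in the genome with related sequences, and cross-hybridisation was not tested. Gzmb and Gzmc were the 2 calls among 22 T and NK cell genes (9.09% of the list, 0.727% of all genes). The list median was 0.002. The log2 of the summed level of that list was 14.63 to 14.72 in BCR-ABL, 14.26 to 14.42 in BCR-RET and 14.21 on all 3 arrays of FGFR1OP-RET. Gzmb and Gzmc made up 84.0% to 89.8% of that sum on the linear scale, so it mostly restates their values.

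Further genes with large falls are given one by one. Pdp1, the phosphatase that activates pyruvate dehydrogenase, was at 11.95, 12.07 and 12.17 in BCR-ABL, at 10.99, 11.12 and 11.13 in BCR-RET and at 11.25, 11.55 and 11.62 in FGFR1OP-RET. All RET arrays were lower than BCR-ABL. Pdp1 fell by 0.79 (SE 0.09, adjusted p = 0.0045), without each array in turn. It was the single call among 23 genes of glucose and pyruvate metabolism (4.35% of the list, 0.727% of all genes). Ermp1, a peptidase of the endoplasmic reticulum, was at 13.29, 13.41 and 13.34 in BCR-ABL and between 12.46 and 12.79 on the 6 RET arrays. Ermp1 fell by 0.69 (SE 0.05, adjusted p = 6.73e-04), without each array in turn and with the RET arrays as 1 group (adjusted p = 0.0134).

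Odf3b fell by 0.94, with -0.15 in BCR-RET and -1.73 in FGFR1OP-RET, and its RET arrays overlapped BCR-ABL. Its call ended without any 1 of 8 arrays (adjusted p of up to 0.184). Mamdc2 fell by 0.90 and lost its call without BCR-ABL replicates 2 or 3 (adjusted p of up to 0.107). The chemokine receptor gene Ccr4 fell by 0.72 and lost its call without any 1 of the BCR-ABL arrays (adjusted p of up to 0.0822). Of 26 integrins and adhesion molecules 1 rose and 2 fell (11.5% of the list, 0.727% of all genes). Those that fell were the integrin gene Itgav (0.46 lower) and the cadherin gene Cdh17 (0.70 lower). Itgav lost its call without BCR-ABL replicate 2 (adjusted p = 0.0654), and Cdh17 without any 1 of 7 arrays (up to 0.19). Itgb3, the platelet integrin beta chain, rose by 0.66 (SE 0.07, adjusted p = 0.0028). Its value on all 3 FGFR1OP-RET arrays was 8.96, so the spread behind the call holds a group with an SD of 0.

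The erythroid and megakaryocyte list had calls in both directions. Gata1, the factor that directs erythroid and megakaryocyte differentiation, was at 9.20, 9.07 and 9.17 in BCR-ABL, at 9.86, 10.10 and 9.74 in BCR-RET and at 9.61, 9.57 and 9.60 in FGFR1OP-RET. The groups did not overlap. Gata1 rose by 0.60 (SE 0.07, adjusted p = 0.0066), a call that ended without the second BCR-ABL array (0.0654). Klf1, an erythroid transcription factor, rose by 0.42, with 0.47 in BCR-RET and 0.36 in FGFR1OP-RET (adjusted p = 0.105 alone), and lost its call without any 1 of 7 arrays (adjusted p of up to 0.225). With Itgb3 they made 3 of 20 erythroid and megakaryocyte genes that rose, and the thrombin receptor gene F2r fell by 0.31, a call that any 1 of 7 arrays ended (up to 0.273). The list median was 0.072, with 13 of 20 above 0. Its summed level, as log2, was 14.86 to 14.88 in BCR-ABL, 14.78 to 14.89 in BCR-RET and 14.75 to 14.81 in FGFR1OP-RET, where every array was below BCR-ABL. Picked after their values were seen, the haematopoietic transcription factor gene Runx1 (0.72), the transferrin receptor gene Tfr2 (0.44) and Alas1 (0.48), the first enzyme of haem synthesis, also rose. Alas1 was at 0.16 in BCR-RET (adjusted p = 0.422 alone) and at 0.80 in FGFR1OP-RET. Tfr2 lost its call without any 1 of 3 arrays (adjusted p of up to 0.15). Runx1 was called with the RET arrays as 1 group (adjusted p = 0.0462) but not without BCR-ABL replicate 1 or 2 (up to 0.105).

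Granulocyte genes were higher as a list, with few calls. Of 22 measured, 3 rose and none fell (13.6% of the list, 0.727% of all genes). The list median was 0.48 against 0.014 for all genes, and 22 of 22 had a difference above 0, as had 57.8% of all genes. Prtn3, a protease of primary granules, was at 9.90, 10.05 and 10.31 in BCR-ABL, at 10.60, 10.69 and 10.85 in BCR-RET and at 11.19, 11.31 and 11.58 in FGFR1OP-RET. The groups did not overlap. Prtn3 rose by 0.95 (SE 0.11, adjusted p = 0.0053), and missed the threshold (0.0569) without the second BCR-ABL array. Lcn2, a secondary granule protein that binds iron carriers, rose by 0.95 (SE 0.18, adjusted p = 0.0492), a call ended by the loss of any 1 of 8 arrays (up to 0.231). Cebpe, the transcription factor of late granulocyte maturation, rose by 0.46, with 0.10 in BCR-RET and 0.83 in FGFR1OP-RET, and lost its call without any 1 of 5 arrays (up to 0.189). The count of 3 was 1 and 0 without BCR-ABL replicates 1 and 2, 1 without BCR-RET replicate 3 and 0 with the RET arrays as 1 group.

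The series title names monocytic differentiation, and monocyte and macrophage genes were read as a list, without a test of differentiation. Of 35 measured, 4 rose and 1 fell (14.3% of the list, 0.727% of all genes). A difference above 0 was found in 31, as in 57.8% of all genes, and the list median was 0.23. Plac8 rose by 0.45, the high-affinity Fc receptor gene Fcgr1 by 0.48, the lysosomal thiol reductase gene Ifi30 by 0.34 and the phagocyte oxidase subunit gene Ncf4 by 0.27, whereas Emilin2 fell by 0.31. The number of list members that rose, which need not be these 4, varied with the arrays. It was 0, 1 and 0 when BCR-ABL replicate 1, 2 or 3 was left out. It was 3, 0 and 2 when the same was done in BCR-RET, 1, 2 and 4 in FGFR1OP-RET, and 0 with the RET arrays as 1 group. Emilin2 lost its call without any 1 of the BCR-ABL arrays (adjusted p of up to 0.104).

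The summed level of the granulocyte list, as log2, was 14.80 to 15.15 in BCR-ABL, 15.38 to 15.81 in BCR-RET and 15.44 to 15.94 in FGFR1OP-RET. That of the monocyte and macrophage list was 15.01 to 15.14, 15.15 to 15.30 and 15.39 to 15.57 in the same order. Both sums were higher on every RET array than on any BCR-ABL array. Their part in the other differences was not tested.

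Immune checkpoint genes moved in both directions. Pdcd1, the inhibitory receptor PD-1, was at 7.18, 7.17 and 7.30 in BCR-ABL, at 9.36, 9.40 and 9.14 in BCR-RET and at 7.39, 7.37 and 7.45 in FGFR1OP-RET. FGFR1OP-RET was just above BCR-ABL and BCR-RET far above both. The pooled difference of 1.13 (SE 0.06, adjusted p = 1.84e-04) is the mean of 2.08 and 0.19, and the second did not pass alone (adjusted p = 0.426). Cd274, the ligand PD-L1, rose by 0.34 (SE 0.05, adjusted p = 0.0264), with 0.34 in BCR-RET and 0.33 in FGFR1OP-RET, a call that any 1 of 6 arrays ended (adjusted p of up to 0.159). Havcr2, the inhibitory receptor TIM-3, fell by 0.93 (SE 0.17, adjusted p = 0.0464), a call that any 1 of 8 arrays ended (up to 0.262). Of the 22 measured immune checkpoint and TNF receptor genes 2 rose and 1 fell (13.6% of the list, 0.727% of all genes). The list median was 0.057. Casp4, an inflammatory caspase that responds to bacterial lipopolysaccharide, was at 7.04, 7.38 and 7.70 in BCR-ABL, at 8.60, 8.92 and 9.15 in BCR-RET and at 7.93, 8.11 and 8.39 in FGFR1OP-RET. The groups did not overlap, with BCR-RET the highest. Casp4 rose by 1.14 (SE 0.16, adjusted p = 0.015), a call lost without BCR-ABL replicate 1 or 2 (up to 0.105). It was the single call among 12 inflammasome genes and caspases (8.33% of the list, 0.727% of all genes).

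**Figure D2:**
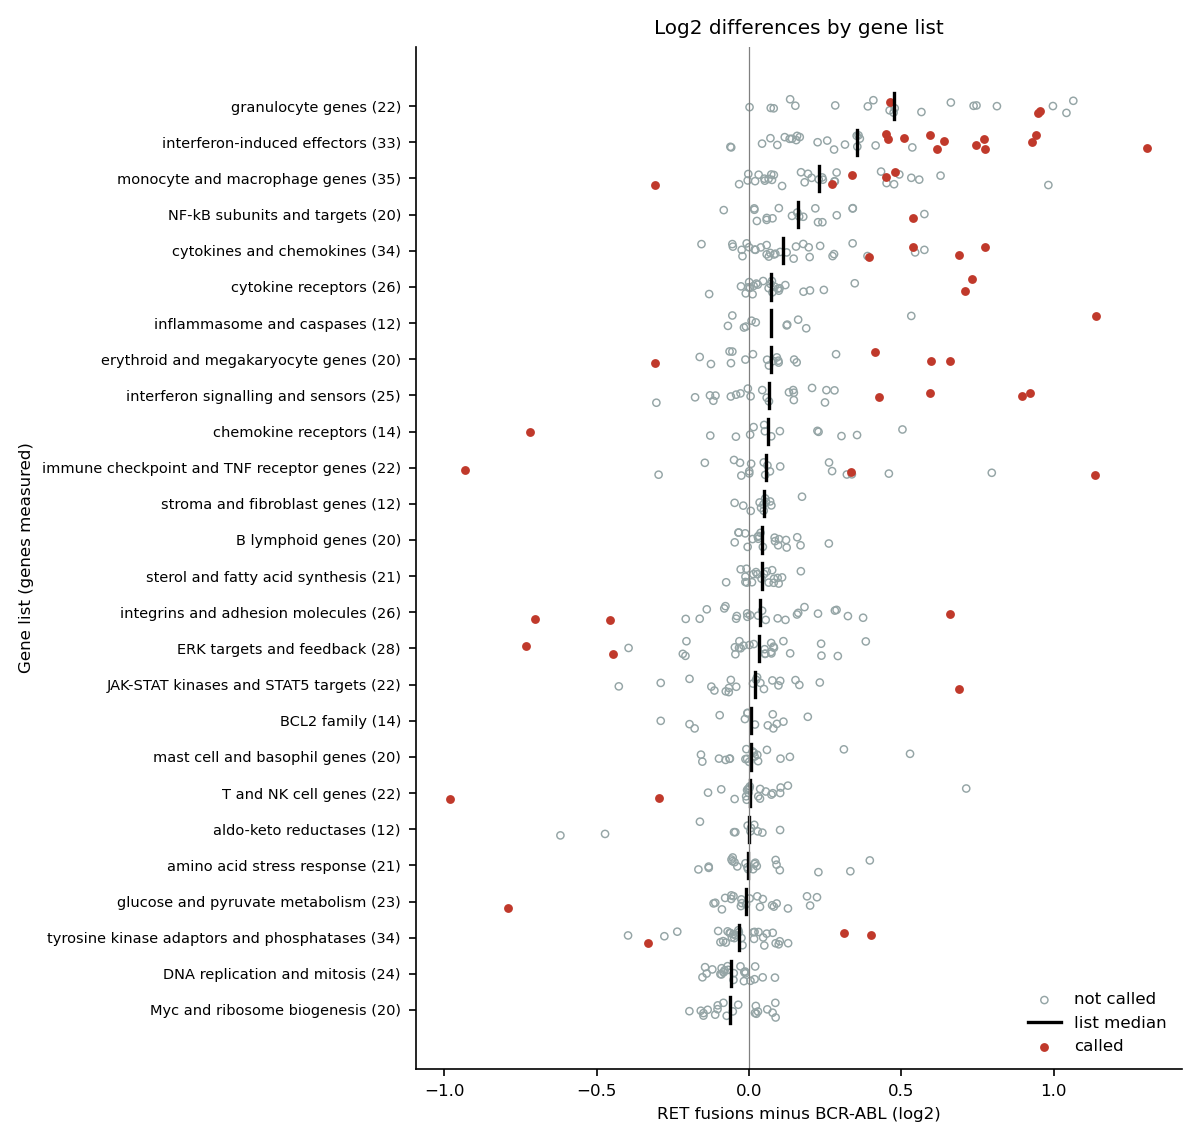
Log2 difference of the RET fusions from BCR-ABL (x axis) for each measured gene of the 26 lists (y axis, with the number measured). Filled points were called, open points were not, and black bars are list medians, which are highest for granulocyte genes (0.48) and interferon-induced effectors (0.36).

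No gene was called among 24 DNA replication and mitosis genes (median -0.06), 20 Myc and ribosome biogenesis genes (-0.063), 14 BCL2 family genes (0.007), 21 sterol and fatty acid synthesis genes (0.041), 21 amino acid stress genes (-0.003) or 12 aldo-keto reductases. As 0.727% of all genes were called, lists of this size without a call are not read as a result. Of 14 chemokine receptors Ccr4 alone was called (7.14%), and of 20 NF-kB subunits and targets Il6 alone (5.0%). The median SE of the pooled difference was 0.061 over all genes.

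The 145 genes differed by a median of 0.47 on the log2 scale in either direction, against 0.053 for all genes. In 134 of them all 6 RET arrays were on one side of all 3 BCR-ABL arrays, as in 3.93% of all genes, and nothing is read from this since the same values made the calls. Only 50 reached 1.5-fold. The smallest called difference was 0.22. Galnt1 was the call nearest the threshold (-0.30, adjusted p = 0.0492) and Nox1 the nearest gene outside it (0.66, adjusted p = 0.0513). Of the 145, 48 were in the lists and 97 in none.

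The equal weight of the RET fusions hides differences between them. BCR-RET and FGFR1OP-RET differed from each other in 46 of the 145 genes (265 of all genes, 1.33%), 33 among those that rose and 13 among those that fell. In 22 of the 46 BCR-RET was farther from BCR-ABL and in 24 FGFR1OP-RET was. Among those farther in BCR-RET were Pdcd1, Cxcl10, Ifit3, Il6, Muc13, Gab3, Igf1r, Rasa2 and Tmem119. Among those farther in FGFR1OP-RET were Oas2, Oas3, Irf7, Ddx58, Xaf1, Tap1, Tapbp, Prtn3, Cebpe, Alas1 and Ryk. The rule on sides is lenient: in 6 of the 145 genes (Muc13, Il6, Cebpe, Ern1, Cpne5 and Plekhg5) one RET group mean lay within 0.1 of BCR-ABL.

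Some genes had like differences in both RET fusions. Rsad2 differed between BCR-RET and FGFR1OP-RET by -0.01 (95% interval -0.22 to 0.20), Cd274 by 0.005 (-0.14 to 0.15), Pja1, a ubiquitin ligase gene that fell by 0.45, by -0.02 (-0.15 to 0.10), and Psmb9 by 0.04 (-0.09 to 0.17). These intervals bound the difference and do not show that it is absent.

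A further 3 genes passed the pooled test with RET means on opposite sides of BCR-ABL and were left out. The hexokinase gene Hk3 was at -0.28 in BCR-RET and 0.73 in FGFR1OP-RET, Pram1 at -0.007 and 1.03, and Arid3a at -0.02 and 0.48. Conversely, 9 of the 145 genes passed the pooled test but not the test of BCR-RET or of FGFR1OP-RET alone against the same BCR-ABL arrays, which called 0.587% and 1.02% of all genes. They were Lcn2, Med21, Rsad2, Inpp5j, Olfr518, Galnt1, Insr, Gzmf and Adgrg3, with pooled adjusted p values of 0.0413 to 0.0492.

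**Figure D3:**
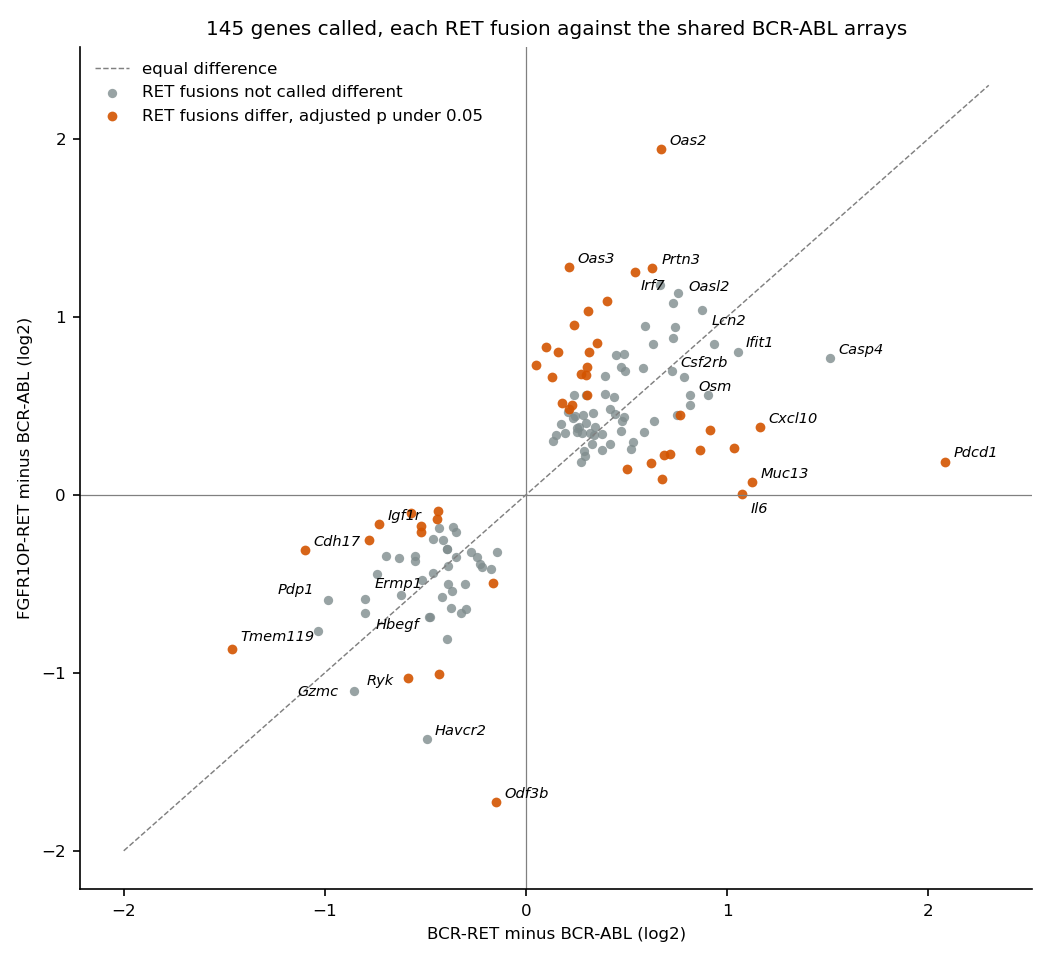
Log2 difference from BCR-ABL of BCR-RET (x axis) and FGFR1OP-RET (y axis) for the 145 genes. Both axes share the 3 BCR-ABL arrays and the genes were chosen on the same side, so only the distance from the dashed line of equal difference is informative. In the 46 orange genes BCR-RET and FGFR1OP-RET differed from each other at an adjusted p under 0.05, with Pdcd1 (2.08 and 0.19) and Oas2 (0.67 and 1.94) far from the line.

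How many genes were called rested on the BCR-ABL arrays and on the treatment of the RET fusions. Without BCR-ABL replicates 1, 2 and 3, 51, 31 and 67 genes were called on the same side. Without 1 of the RET arrays the count was 97 to 133. A larger loss without a BCR-ABL array is in part set by the design, in which 3 BCR-ABL arrays face 6 RET arrays. Of the 145, 30 were called without each array in turn, 20 higher and 10 lower. They included Oas2, Oas3, Oasl2, Irf7, Isg20, Ifi27, Csf2rb, Csf2rb2, Osm, Itgb3, Pdcd1, Gbp7 and Tapbp among those that rose, and Tmem119, Gzmc, Hbegf, Pdp1, Ermp1, Ryk, Igf1r, Rasa2, Pja1 and Arnt2 among those that fell.

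With the 6 RET arrays as 1 group 17 genes were called, 10 higher and 7 lower. The 10 were Oasl2, Isg20, Far2, Selenbp1, Selenbp2, Runx1, Csf2rb, Osm, Gbp7 and Psmb9. The 7 were Gzmc, Hbegf, Ermp1, Pja1, Arnt2, Mapk8ip2 and the sialyltransferase gene St3gal2. Selenbp1 (0.81) and Selenbp2 (0.74) encode close relatives, and cross-hybridisation was not tested.

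**Figure D4:**
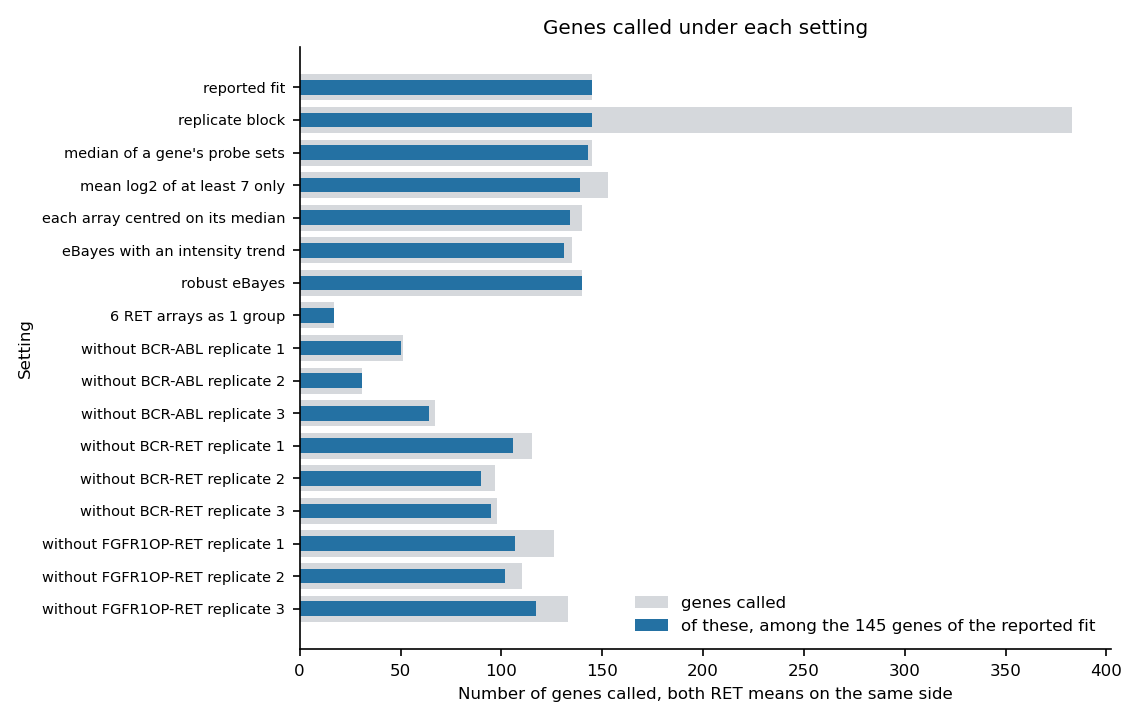
Number of genes called with both RET means on the same side (x axis) in the reported fit and under each alternative (y axis). Grey bars are all calls and blue bars those among the 145 genes of the reported fit, with 145 calls in the reported fit, 31 without BCR-ABL replicate 2 and 17 with the RET arrays as 1 group.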

How the data were processed

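The values deposited by the authors are gene-level RMA estimates on the log2 scale from Affymetrix MouseGene 1.0 ST arrays. Expression Console and RMA are named in the submitters' processing notes, and the sources used here give no version or annotation. RMA makes the arrays' distributions alike and would hide a change common to most transcripts. Detection calls were not used, and the number of arrays limits the precision.

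Of 35557 probe sets, 21789 had 1 gene symbol, 1621 several and 12147 none. Those with 1 symbol were kept, with the probe set of the highest mean for 999 genes with several, leaving 19938 genes. Symbols were checked through Entrez identifiers against RefSeq (GRCm38.p6), which changed none, and 91 identifiers were not in it. No coordinates of probe sets are printed.

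The contrast was fitted with limma 3.58.1 in R 4.3.3 (lmFit and eBayes, a mean per group, 9 arrays), two-sided. It was also run on simulated data with independent noise and the same effect in both RET groups. That run held no difference between the RET fusions and no link between same-numbered arrays, so it does not check either. SE denotes a log2 difference's standard error. Genes and lists were chosen with earlier results of these data known. Named genes were the 8 highest and 8 lowest calls with separate arrays, up to 5 calls per list, the fusion partners, the genes nearest the threshold, 3 calls on opposite sides and the 4 calls with the smallest p between the RET fusions, and genes outside this rule are marked or named to complete a count.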

Additional observations from a re-analysis of the deposited data

Results flagged for a closer look

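The effect of the RET fusions on a gene was flagged where BCR-RET and FGFR1OP-RET differed from each other in the same limma fit (adjusted p under 0.05 over all genes, n = 3 arrays each). This met 22 of the 56 named genes, and 265 of 19938 genes (1.33%) in all. Values below are BCR-RET minus FGFR1OP-RET on the log2 scale.

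Higher in BCR-RET were Pdcd1 (1.90, adjusted p = 6.88e-06), Il6 (1.07), the mucin gene Muc13 (1.05), Cxcl10 (0.78), Nox1 (0.71) and Gab3 (0.44). Of these, Nox1 was not called in the pooled comparison and the others rose. Ccr4 (0.57), Ryk (0.45) and Dok2 (0.33) were also higher in BCR-RET, and they fell more in FGFR1OP-RET.

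Lower in BCR-RET were Oas2 (-1.27), Oas3 (-1.07, adjusted p = 1.89e-04), Cebpe (-0.73), Ddx58 (-0.72), Irf7 (-0.71), Prtn3 (-0.65) and Il1rn (-0.54), which were higher in FGFR1OP-RET. Igf1r (-0.56), Tmem119 (-0.59) and Cdh17 (-0.79) fell more in BCR-RET. The genes with RET means on opposite sides of BCR-ABL were Hk3 (-1.01, adjusted p = 2.56e-05), Pram1 (-1.03) and Arid3a (-0.50).

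The largest adjusted p of the 22 was 0.0499, for Nox1 and Ccr4. Groups of 3 arrays are too small for a test of single outlying arrays.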

How the results depend on the processing

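The 148 pooled calls, 145 with both RET means on the same side, came to within 1.5 times these counts with probe sets summarised by their median, a mean log2 of at least 7, centring on array medians, an intensity trend or robust eBayes (135 to 153 on the same side). Equal replicate numbers as a block gave 402 pooled calls, 383 on the same side (250 higher and 133 lower), among them all 145, and 1135 calls between the RET fusions in place of 265. Deviations of same-numbered arrays from their group means correlated across genes with r of -0.152 to 0.617. Arrays numbered 1 and 3 matched their own number best in all 3 pairs of groups and those numbered 2 in none. The numbers were not taken as pairs in the reported fit, so any effect that same-numbered arrays share counts there as spread. With the 6 RET arrays as 1 group there were 17 pooled calls, all on the same side, 10 higher and 7 lower, since the difference between the RET fusions then counts as spread. Leaving out each array in turn gave 31 to 133 pooled calls, 31 to 133 on the same side, 21 to 89 higher, 10 to 44 lower, and 86 to 194 calls between the RET fusions. The pooled counts were lowest without BCR-ABL replicate 2, and the count between the RET fusions was lowest without FGFR1OP-RET replicate 2. Each lone omission leaves 2 arrays in a group, with the spread shared by all groups.

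No named gene changed direction under any of the 16 alternatives. Of the 49 named calls on the same side, 15 held without each array in turn, and 11 of the 145 genes were called under every alternative. Few arrays limit what can be called, and a gene without a call is not shown to be equal.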

Other observations

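Some of the 145 genes lie beside one another in the genome, by the order of protein-coding genes in the RefSeq table of GRCm38.p6. There were 25 pairs with at most 4 coding genes between them, and in 24 both genes moved in the same direction. As 93 of the 145 genes rose, many pairs would share a direction in any case. Pairs within a stretch or family are not independent, and no share of close pairs over all genes was computed. Ncf4, Csf2rb2, Csf2rb and Mpst, which rose, lie in this order in 1 stretch that joins the interleukin-3 receptor beta chains to a phagocyte oxidase subunit. Cdh17 and Pdp1, which fell, are direct neighbours of unrelated function, as are Prtn3 and Plppr3, which rose, and Crp and Dusp23, which fell. The calls of Crp and Dusp23 ended without any 1 of 7 and 9 arrays (adjusted p of up to 0.206 and 0.225). Odf3b, Lmf2 and Mapk8ip2, which fell, lie within a short distance of each other. Cd274 and Ermp1 were the pair with opposite directions, 0.34 and -0.69, with 2 coding genes between them. Families such as the granzymes and the Oas, Oasl, Ifit and Selenbp genes account for other pairs. Whether neighbours share a direction more often than other genes was not tested.

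Metal and haem genes with roles outside the lists were also among the calls, picked after their values were seen. The zinc transporter genes Slc39a14 (0.52 lower) and Slc39a4 (0.40 lower) fell, whereas Alas1, mainly in FGFR1OP-RET, and Tfr2 rose. All but Alas1 lost their calls without BCR-ABL replicate 2. Among 8 members with several probe sets, the probe sets left out of the test lay in the same direction in 7. The exception was Tent5a, at 0.30 in the test and -0.004 in the other.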
